A study of Mus musculus with 6 samples.

Results

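The genes described here encode the nuclear subunits of oxidative phosphorylation and their close relatives, measured as messenger RNA in the cerebral cortex of young adult and old adult mice. They were taken by symbol from the deposited tables: every gene whose symbol began with Ndufa, Ndufb, Ndufc, Ndufs or Ndufv, Uqcr, Cox4 to Cox8 or Atp5, together with Sdha to Sdhd, and without symbols marked as pseudogenes by "-ps". This gave 100 of the 55421 genes in the tables, of which 97 had at least 10 counts over the 6 libraries and were tested. Among the 100 genes, 78 were entries for subunits, 8 were assembly factors of complex I, 10 were forms of complex IV used by other tissues or relatives of its subunits, and 4 were other copies of complex I genes. Of the 78 subunit entries 77 were tested, the exception being a second entry for Atp5o that was listed at 0 counts in all libraries. All samples came from wild-type male C57BL/6J mice under isoflurane anaesthesia, 3 of them young adults at 6 months (mice 10, 11 and 17) and 3 of them old adults at 24 months (mice 2, 4 and 5). The mice were on a standard diet, mice with visible tumours were left out by the study, the dissected cortex was powdered, and libraries for single-end reads of 75 bases were built by a low-input method, starting from 10 ng of RNA in each mouse. Values per mouse are given throughout in the order 10, 11 and 17 and then 2, 4 and 5, and every comparison is 24 against 6 months.

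Oxidative phosphorylation takes place in the inner mitochondrial membrane. Complex I (NADH dehydrogenase) and complex II (succinate dehydrogenase) pass electrons to ubiquinone, complex III passes them on to cytochrome c, and complex IV (cytochrome c oxidase) hands them to oxygen. Complexes I, III and IV pump protons, and complex V (ATP synthase) uses the returning protons to make ATP. Some subunits of complexes I, III, IV and V are encoded by mitochondrial DNA and the rest by nuclear genes, whereas complex II is wholly nuclear. Neurons depend strongly on this pathway to pay for ion pumping and synaptic transmission.

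The counts summed to between 29495379 and 36494240 per library. Genes with any count numbered 33974 to 35651 in the 6-month libraries and 40208 to 43561 in the 24-month libraries. Levels are given as CPM, the count divided by the scaled library size, and the scaling used TMM factors, which lay between 0.921 and 0.946 at 6 months and between 1.04 and 1.10 at 24 months. So scaled, the 32905 genes tested had a median log2 fold change of 0.15, but the 15793 with a mean of at least 1 CPM had -0.14 and those of at least 50 CPM -0.23. With library totals alone the median of genes of at least 1 CPM was 0.05. The direction of a small change in an expressed gene therefore depended on the scaling. The values below are to be read against the median of genes of at least 1 CPM, and for abundant genes also against that of at least 50 CPM. The tissue carried the markers of cortex: 8 neuron markers (Rbfox3, Snap25, Syt1 and others) summed to 11468 to 12806 CPM at 6 months and 8580.4 to 10962 CPM at 24 months. Of these markers 4 of 8 were lower at an unadjusted p under 0.05, against 26.9% of genes of at least 1 CPM. Their median log2 fold change was -0.25, against -0.23 for genes of at least 50 CPM. With library totals these medians were -0.06 and -0.04. The 6 oligodendrocyte markers ranged from 1259 CPM in 24-month mouse 2 to 4052 CPM in 24-month mouse 5, with the 6-month mice between them. The other 9 marker lists had medians from -0.36 (red blood cells) to 0.32 (choroid plexus). The part of cell makeup in the values below was not tested. In whole tissue, fewer cells of a type and less RNA per cell cannot be told apart.

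Most subunits were abundant messages. Levels between genes are compared here in TPM, which divides by exonic length before scaling to the library. The median subunit had 288 TPM, 64 of the 77 had a mean above 100 TPM, and only 2 lay under 10 TPM. The highest levels were those of complex IV, with Cox4i1 at 1349.8 TPM, Cox6a1 at 1305 TPM and Cox8a at 1181 TPM. The catalytic β subunit of ATP synthase, Atp5b, had 768 TPM and its α partner Atp5a1 had 682 TPM. In complex II the flavoprotein Sdha (619 TPM) and the iron-sulphur protein Sdhb (576 TPM) were well above the membrane anchor Sdhc (65.6 TPM). The largest core subunit of complex I, Ndufs1, had 73.0 TPM and the accessory subunit Ndufa8 656 TPM. That gap rests on exonic lengths of 8086 and 861 bases, since in CPM, not divided by length, the 6-month means were 182 and 164. The lowest tested subunits were Atp5g2 at 5.66 TPM and Atp5l at 3.63 TPM. These low values are uncertain, because 65.1% of the stretches of read length in Atp5l and 35.99% of those in Atp5g2 also occur in genes elsewhere, and the stated counting kept only reads with a mapping quality of at least 15. The share of stretches held in common was above 25% for 6 of the 77 subunits, the others being Ndufb4, Uqcrb, Ndufs3 and Atp5h. Within an age the subunits varied little, with a median coefficient of variation of 5.07% at 6 months and 5.74% at 24 months.

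**Figure D1:**
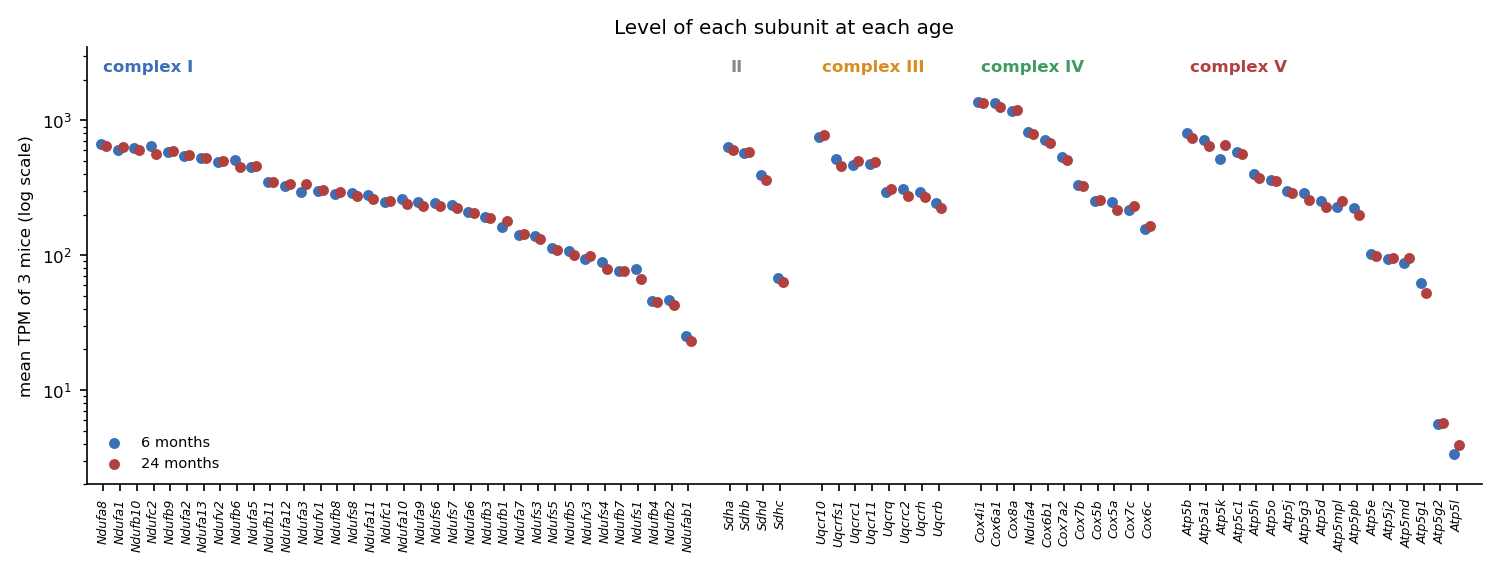
Mean level of 76 tested subunits in TPM (log scale) at 6 months (blue, 3 mice) and 24 months (red, 3 mice), ordered by level within complexes I to V. Cox4i1 stands highest at 1349.8 TPM, and Atp5g2 and Atp5l stand apart at the bottom at 5.66 and 3.63 TPM.

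The question was whether the subunits of each complex differed between young and old cortex. With TMM scaling, 71 of the 77 subunits had a lower fitted level at 24 months and 6 a higher one. Their median log2 fold change was -0.16, against -0.14 for genes of at least 1 CPM and -0.23 for genes of at least 50 CPM. No subunit passed the 1% false discovery rate (FDR) that the study used, which 0% of all genes tested passed with edgeR's quasi-likelihood test. The study itself reported differentially expressed genes at that threshold, using edgeR after a filter, and did not name its test. The likelihood ratio test, the exact test and DESeq2 also put 0 subunits past 1% FDR, and the share of all genes past it was not taken for them. At 10% FDR 12 of 77 subunits (15.6%) were lower, against 8.33% of all genes tested and 17.3% of genes of at least 1 CPM. None was higher at 10% FDR, against 10.0% of all genes tested. The share higher was not taken among genes of at least 1 CPM, whose median log2 fold change was -0.14. At an unadjusted p under 0.05, 23 subunits (29.9%) were lower and 0 higher, against 13.1% lower and 17.6% higher among all genes tested and 26.9% lower among genes of at least 1 CPM. The 2 ages did not overlap for 39 subunits (50.6%), all lower at 24 months, against 16.3% lower and 20.0% higher among all genes tested and 32.4% lower among genes of at least 1 CPM. Set against genes of at least 1 CPM, the share of subunits called was thus slightly under at 10% FDR, slightly over at an unadjusted p under 0.05, and larger by non-overlap of the mice. These shares were not taken for genes of at least 50 CPM. With library totals in place of TMM, 25 subunits were fitted lower and 52 higher, the median was 0.04 and no subunit passed 10% FDR. The 12 subunits lower at 10% FDR were Ndufs1, Ndufs4, Ndufb6 and Ndufc2 of complex I, Uqcrc2 and Uqcrfs1 of complex III, Cox5a of complex IV, and Atp5a1, Atp5d, Atp5g1, Atp5g3 and Atp5pb of complex V. All of these 12 were lower in every old mouse than in every young mouse. They were picked by p-value in these same 6 mice, so this and the settings below are not separate support. The same was not counted for all genes called. Each of them was fitted lower under all 18 other settings tried, although the number of those settings in which each passed 10% FDR ran from 0 for Uqcrc2 and Atp5d to 6 for Cox5a and Atp5g1. Leaving out 1 library moved the count of 12 to 0 (without young mouse 10 or 11, or old mouse 2 or 4), to 2 (without young mouse 17) or to 15 (without old mouse 5). The p-values set the difference between the ages against the spread between mice within an age, for these 6 mice.

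**Figure D2:**
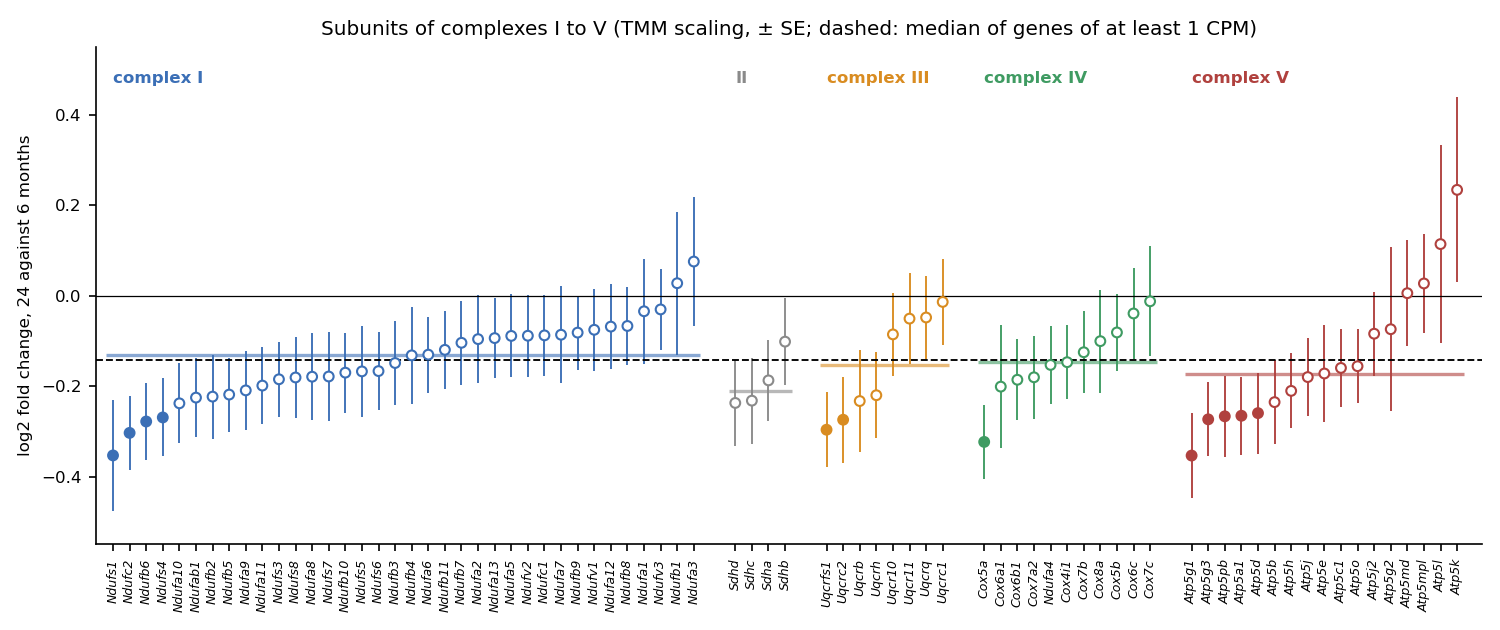
Log2 fold change of 76 tested subunits, 24 against 6 months, ± SE from the edgeR fit with TMM scaling. Filled points passed 10% FDR, coloured lines are complex medians and the dashed line is the median of genes of at least 1 CPM (-0.14). The medians of complexes I, III and IV lie closest to that line and that of complex II lies farthest below it.

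By complex, the median log2 fold change was -0.13 for complex I (37 subunits), -0.21 for complex II (4), -0.15 for complex III (8), -0.15 for complex IV (11) and -0.17 for complex V (17), against -0.14 for genes of at least 1 CPM. For genes of at least 50 CPM the median was -0.23, and no complex median lay below it. The summed level of complex I was 4765, 4644 and 4489 CPM at 6 months and 4299, 4196 and 4097 CPM at 24 months. For complex II the sums were 1375, 1316 and 1239 CPM and 1164, 1203 and 1126 CPM, and for complex III 1589, 1509 and 1418 CPM and 1399, 1403 and 1353 CPM. Complex IV summed to 2354, 2238 and 2284 CPM at 6 months and 2001, 1970.2 and 2231 CPM at 24 months, with mouse 5 just under the lowest 6-month mouse. Complex V summed to 3696, 3659 and 3457 CPM at 6 months and 2999, 3202 and 3203 CPM at 24 months, the largest difference of the 5 complexes in CPM at -13.0% of the 6-month mean. In TPM the largest was that of complex II at -3.85%, and complex V was at -2.43%. All 5 sums separated the ages with TMM factors, and none did with library totals or in TPM. Relative to all counts in a library, the subunits together took 1.27%, 1.26% and 1.21% at 6 months and 1.30%, 1.28% and 1.25% at 24 months.

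**Figure D3:**
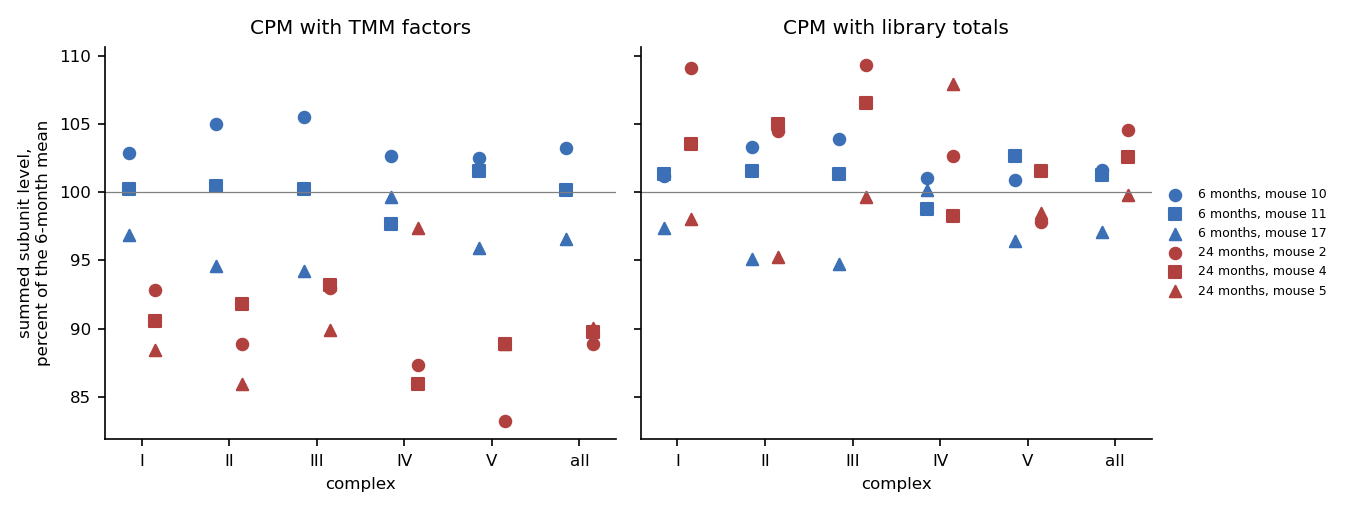
Summed level of the subunits of each complex in each mouse, as a percent of the 6-month mean, with TMM factors (left) and with library totals (right). Blue points are 6-month mice and red points are 24-month mice. With TMM factors the 24-month mice lie lower in every complex, and with library totals the ages overlap in every complex.

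**Figure D4:**
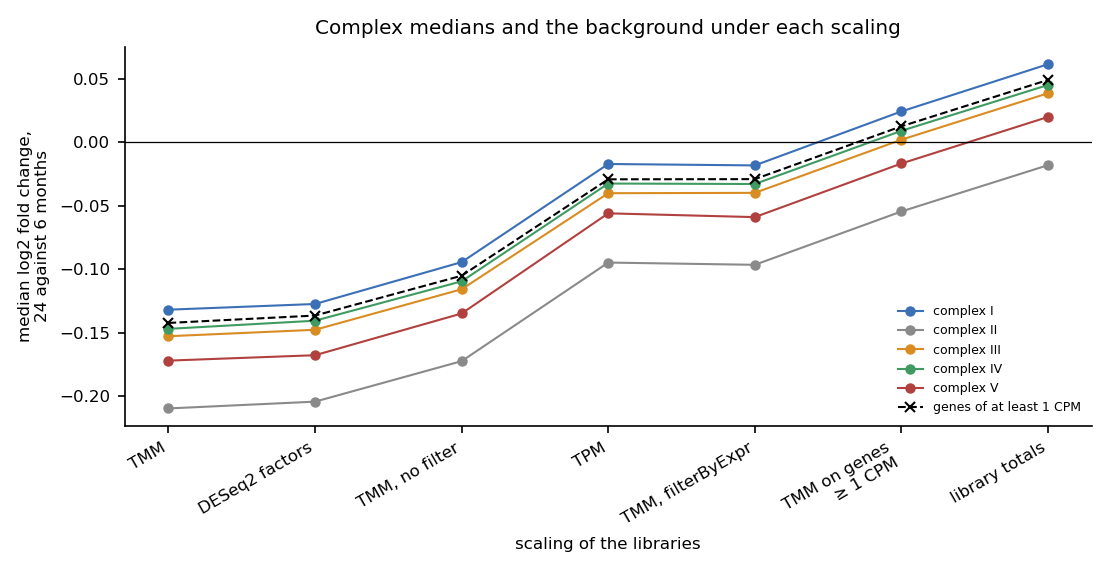
Median log2 fold change of each complex under 7 ways of scaling the libraries, beside the median of genes of at least 1 CPM (dashed). The scalings shift all genes of a library together, so the complexes move with the dashed line, from -0.17 to 0.02 in complex V between TMM and library totals.

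Shares of subunits within a library do not depend on the factor that scales that library. They were taken in CPM, which does not divide by length, and shares in TPM were not taken. Of the summed subunit level, complex I took 34.6, 34.7 and 34.8% at 6 months and 36.2, 35.0 and 34.1% at 24 months, and complex IV took 17.1, 16.7 and 17.7% and 16.9, 16.5 and 18.6%. Complex V took 26.8, 27.4 and 26.8% at 6 months and 25.3, 26.7 and 26.7% at 24 months, so that the highest old mouse lay just under the lowest young one. The shares of complexes I to IV overlapped between the ages. Taken 1 by 1 relative to the summed subunits, a comparison added after the data were seen, 9 of 77 subunits were lower without overlap of the ages and 3 were higher, against 13.1% lower and 12.0% higher among genes of at least 1 CPM. The 9 lower were Ndufab1, Ndufc2, Ndufs4, Uqcrfs1, Cox5a, Atp5a1, Atp5g1, Atp5g3 and Atp5pb, and the 3 higher were Cox5b, Atp5md and Atp5mpl. Cox5a, for example, made up 1.09, 1.10 and 1.16% of the summed subunit level at 6 months and 1.00, 0.959 and 1.03% at 24 months.

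Complex I was lower in 35 of its 37 tested subunits by the fitted value (10 with library totals). At 10% FDR 4 (10.8%) were lower and 0 higher, against 17.3% lower among genes of at least 1 CPM. The core subunits carry the flavin and iron-sulphur clusters along which electrons travel, and of the 7 encoded in the nucleus 1 passed 10% FDR. This was Ndufs1, which holds several of the iron-sulphur clusters, with 198, 189 and 158 CPM at 6 months and 122, 146 and 158 CPM at 24 months. Every old mouse was lower than every young mouse, although young mouse 17 and old mouse 5 differed by less than 1 CPM (log2 fold change -0.35 ± 0.12 (SE), adjusted p = 0.094). Ndufv1, the subunit that binds NADH and flavin, had 232, 225 and 214 CPM at 6 months and 219, 224 and 194 CPM at 24 months (log2 fold change -0.08 ± 0.09 (SE), adjusted p = 0.60). Its neighbour Ndufv2 had 319.6, 285 and 289.8 CPM at 6 months and 284, 295 and 261 CPM at 24 months (log2 fold change -0.09 ± 0.09 (SE), adjusted p = 0.53). For both the ages overlapped. Ndufs7, a subunit near the quinone site, had a log2 fold change of -0.18 (adjusted p = 0.24). Ndufs3 and Ndufs8 had log2 fold changes of -0.18 and -0.18 (adjusted p = 0.17 and 0.20). Of the read-length stretches of Ndufs3, 28.7% also occur in a gene elsewhere.

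The accessory subunits of complex I surround the core and are needed for its assembly and stability. Of 30 tested, 3 (10.0%) were lower at 10% FDR and 0 higher, against 17.3% lower among genes of at least 1 CPM. The median log2 fold change was -0.13. Ndufc2, a subunit of the membrane arm, lies at chromosome 7, 97400003 to 97407802, plus strand, and had 139.9, 137 and 139 CPM at 6 months and 113, 108 and 116 CPM at 24 months. Both ages were tight and well apart (log2 fold change -0.30 ± 0.08 (SE), adjusted p = 0.062), and they stayed apart with library totals. Ndufb6, also of the membrane arm, had 94.0, 93.8 and 97.7 CPM at 6 months and 82.1, 75.5 and 77.9 CPM at 24 months (log2 fold change -0.28 ± 0.09 (SE), adjusted p = 0.076), but 39.0% of its exonic bases overlap a gene on the other strand and the library kit does not mark strand. Ndufs4, a subunit whose loss in mice gives a Leigh-like brain disease, had 70.0, 65.5 and 68.9 CPM at 6 months and 55.7, 56.9 and 57.0 CPM at 24 months (log2 fold change -0.27 ± 0.09 (SE), adjusted p = 0.081). Its ages did not overlap under TMM or library totals. At the other end, Ndufa3 had 96.2, 95.5 and 66.4 CPM at 6 months and 97.3, 82.9 and 91.8 CPM at 24 months, the young mouse 17 being the lowest of all 6 (log2 fold change 0.08 ± 0.14 (SE), adjusted p = 0.75). The acyl carrier protein Ndufab1, which also serves mitochondrial fatty acid synthesis, had 49.7, 49.7 and 48.2 CPM at 6 months and 42.6, 42.1 and 41.5 CPM at 24 months (log2 fold change -0.23 ± 0.09 (SE), adjusted p = 0.12).

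Complex II, which links the citric acid cycle to the respiratory chain, had no subunit past 10% FDR. All 4 subunits had lower fitted values (2 with library totals). An unadjusted p under 0.05 was reached by 2 of them, against 26.9% lower among genes of at least 1 CPM. The flavoprotein Sdha had 782, 772 and 679 CPM at 6 months and 635, 682 and 646 CPM at 24 months, with old mouse 4 just above young mouse 17 (log2 fold change -0.19 ± 0.09 (SE), adjusted p = 0.18). Sdhb had 383, 352 and 359 CPM at 6 months and 365, 352 and 303 CPM at 24 months, and old mouse 4 lay level with the lowest young mouse while old mouse 5 lay well below (log2 fold change -0.10 ± 0.10 (SE), adjusted p = 0.49). The anchors Sdhc and Sdhd had log2 fold changes of -0.23 ± 0.10 and -0.24 ± 0.10 (SE), with adjusted p = 0.14 and 0.13. Sdhd had 149.7, 125 and 137 CPM at 6 months and 111, 119 and 119 CPM at 24 months, and Sdhc had 60.4, 65.8 and 63.2 CPM at 6 months and 52.6, 50.5 and 58.0 CPM at 24 months. For both anchors every old mouse was below every young mouse. Without old mouse 5 Sdhc passed 10% FDR, but mouse 5 was its highest old mouse, and leaving it out lowers the old mean by construction.

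In complex III, 2 of 8 subunits were lower at 10% FDR and 0 higher, against 17.3% lower among genes of at least 1 CPM. With library totals no subunit of complex III was called. Uqcrfs1, the Rieske iron-sulphur protein that passes electrons to cytochrome c1, lies at chromosome 13, 30540308 to 30545362, minus strand, and had 207, 198 and 199 CPM at 6 months and 157, 171 and 164 CPM at 24 months. The ages were far apart relative to the spread within each (log2 fold change -0.30 ± 0.08 (SE), adjusted p = 0.065). The core protein Uqcrc2 had 231, 235 and 205 CPM at 6 months and 176, 199 and 179 CPM at 24 months, the highest old mouse lying just under the lowest young one (log2 fold change -0.27 ± 0.10 (SE), adjusted p = 0.095). The other core protein Uqcrc1 had 599.7, 544 and 512 CPM at 6 months and 566, 569 and 505 CPM at 24 months, and the ages overlapped throughout (log2 fold change -0.01 ± 0.09 (SE), adjusted p = 0.94). The difference between the 2 core proteins was not tested. Of the exonic bases of Uqcrc2, 19.7% overlap a gene on the other strand. Cyc1, the nuclear-encoded cytochrome c1 that the symbol rule did not take, had 229.6, 218 and 223 CPM at 6 months and 229.9, 228 and 196 CPM at 24 months (log2 fold change -0.03 ± 0.09 (SE), adjusted p = 0.82).

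In complex IV, 1 of 11 subunits (9.09%) was lower at 10% FDR and 0 higher, against 17.3% lower among genes of at least 1 CPM. Cox5a, a nuclear subunit that faces the matrix, lies at chromosome 9, 57521274 to 57532426, plus strand, and had 150.2, 147 and 149.96 CPM at 6 months and 119, 115 and 123 CPM at 24 months. It had the smallest adjusted p of all members, its ages were far apart and they did not overlap with library totals (log2 fold change -0.32 ± 0.08 (SE), adjusted p = 0.059). Cox5b, a zinc-binding subunit also on the matrix side, had 117, 116 and 108 CPM at 6 months and 111, 105 and 107 CPM at 24 months, with overlapping ages (log2 fold change -0.08 ± 0.08 (SE), adjusted p = 0.54). With library totals its old mice were all above its young mice, the opposite of Cox5a. Cox4i1, the largest nuclear subunit, had 593, 578 and 633 CPM at 6 months and 541, 534 and 556 CPM at 24 months, every old mouse being below every young mouse (log2 fold change -0.15 ± 0.08 (SE), adjusted p = 0.24). Cox6a1 had 267, 258 and 280.2 CPM at 6 months and 204, 206 and 291 CPM at 24 months, and here old mouse 5 was the highest of all 6 (log2 fold change -0.20 ± 0.14 (SE), adjusted p = 0.34). Without mouse 5 its log2 fold change was -0.38 and it passed 10% FDR. Leaving out the highest old mouse lowers the old mean by construction, so this call is not support for a difference. The share of all genes called in that fit was not taken. Cox8a likewise had its highest old value in mouse 5, with 217, 195 and 209 CPM at 6 months and 183, 171 and 225 CPM at 24 months (log2 fold change -0.10 ± 0.11 (SE), adjusted p = 0.57). At the upper end Cox7c had 76.6, 73.4 and 58.6 CPM at 6 months and 63.9, 67.2 and 75.7 CPM at 24 months, young mouse 17 being the lowest of all 6 (log2 fold change -0.01 ± 0.12 (SE), adjusted p = 0.96).

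In complex V, 5 of 17 subunits were lower at 10% FDR and 0 higher, against 17.3% lower among genes of at least 1 CPM, and none was called with library totals. The 5 subunits of the F1 head, where ATP is made, were all fitted lower (3 with library totals). Their median log2 fold change was -0.24, against -0.23 for genes of at least 50 CPM. Atp5a1 had 648, 659 and 611 CPM at 6 months and 498, 562 and 536 CPM at 24 months (log2 fold change -0.27 ± 0.09 (SE), adjusted p = 0.083). Atp5b, which carries the catalytic sites, had 975, 1007 and 911 CPM at 6 months and 744, 869 and 844 CPM at 24 months (log2 fold change -0.24 ± 0.09 (SE), adjusted p = 0.12). For both, every old mouse was below every young one, and mouse 2 was the lowest. In the central stalk, Atp5c1 had 333, 298 and 310.4 CPM at 6 months and 275, 292 and 276 CPM at 24 months (log2 fold change -0.16 ± 0.09 (SE), adjusted p = 0.23), and Atp5d had 132, 136 and 148 CPM at 6 months and 122, 111 and 114 CPM at 24 months (log2 fold change -0.26 ± 0.09 (SE), adjusted p = 0.094). The smallest F1 subunit, Atp5e, had 53.1, 54.1 and 45.6 CPM at 6 months and 45.6, 41.9 and 48.2 CPM at 24 months, with young mouse 17 level with old mouse 2 and below old mouse 5 (log2 fold change -0.17 ± 0.11 (SE), adjusted p = 0.29). In the peripheral stalk that holds the head still, Atp5pb had 276, 255 and 248 CPM at 6 months and 202, 223 and 222 CPM at 24 months (log2 fold change -0.27 ± 0.09 (SE), adjusted p = 0.089).

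The proton-driven c ring of complex V is encoded by 3 nuclear genes whose mature proteins are the same and whose import sequences differ. Atp5g1 lies at chromosome 11, 96068852 to 96075670, minus strand, and had 90.5, 87.5 and 83.3 CPM at 6 months and 70.9, 62.4 and 71.3 CPM at 24 months. Its old mice were well below its young mice, also with library totals (log2 fold change -0.35 ± 0.09 (SE), adjusted p = 0.062). Atp5g3 had 175, 173 and 185 CPM at 6 months and 146, 147 and 149 CPM at 24 months, and again the ages were apart under both scalings (log2 fold change -0.27 ± 0.08 (SE), adjusted p = 0.072). Atp5g2 had 2.40, 2.69 and 2.87 CPM at 6 months and 2.40, 2.26 and 2.91 CPM at 24 months, with overlapping ages (log2 fold change -0.07 ± 0.18 (SE), adjusted p = 0.80), and its level is uncertain as said above. In TPM the order was Atp5g3 at 272, Atp5g1 at 57.6 and Atp5g2 at 5.66. The membrane-part subunits Atp5k, Atp5l, Atp5md and Atp5mpl were the 4 of complex V fitted higher, with log2 fold changes of 0.23, 0.11, 0.01 and 0.03 and adjusted p from 0.46 to 0.98.

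Among the young mice, mouse 17 was the lowest for the subunits with the shortest median coding transcripts. Atp5k, a small subunit at the dimer interface of ATP synthase, had 98.1, 115 and 57.1 CPM at 6 months and 109, 102 and 107 CPM at 24 months, so that young mouse 17 lay far below all other mice (log2 fold change 0.23 ± 0.20 (SE), adjusted p = 0.46). Without mouse 17 its log2 fold change was -0.01. The median coding transcript was shorter than 450 bases in 9 subunits, and in all 9 mouse 17 was the lowest young mouse, with a median log2 difference of -0.28 from mice 10 and 11. The differences ran from -0.89 in Atp5k to -0.04 in Ndufa6. This length is the median over all annotated coding transcripts of a gene, short ones included. It was 382 bases for Ndufa6 and 651 for Ndufs1, whose exonic lengths are 1801 and 8086 bases. Among the other 68 subunits it was the lowest young mouse in 35, with a median of -0.04. Among 18 other genes of at least 50 CPM with transcripts under 450 bases it was the lowest in 9, with a median of -0.02. The short subunits had a median log2 fold change of -0.03 with mouse 17 and -0.10 without it, and the remaining subunits -0.17 with and without it. Of the 6 subunits fitted higher at 24 months, 1 was fitted higher without mouse 17. Across the 76 subunits with a coding transcript, which share the same 6 libraries, transcript length and log2 fold change had a Spearman rho of -0.489, and -0.43 without mouse 17. Over 4282 other genes of at least 50 CPM rho was -0.157. The 18 other short genes had a median log2 fold change of -0.20. The part of transcript length in these values was not tested.

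**Figure D5:**
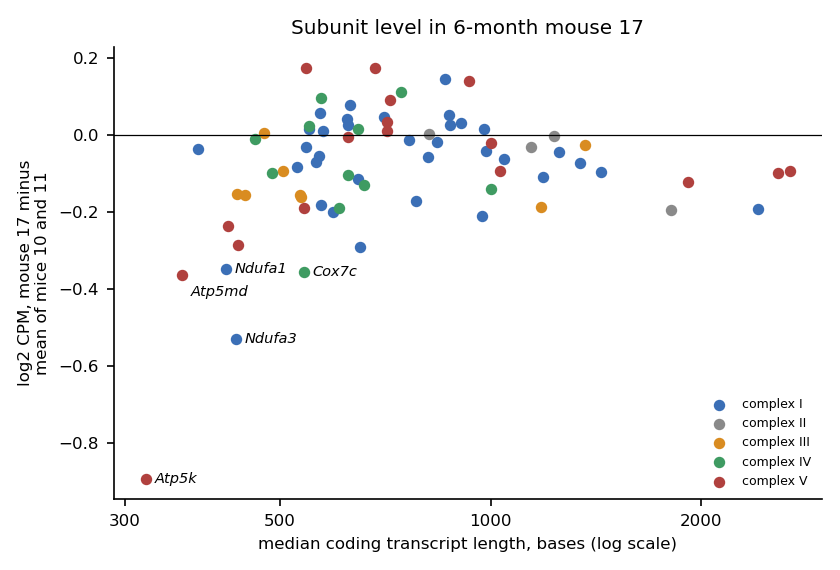
Difference in log2 CPM between young mouse 17 and the mean of young mice 10 and 11 for the subunits, against its median coding transcript length (log scale). Points are subunits coloured by complex. Atp5k lies lowest at -0.89 and Ndufa3 next at -0.53, both with transcripts under 450 bases.

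The isoform pairs of complex IV kept the usual form for brain at both ages. Cox4i2, a form of lung and of low oxygen, had 9.27 TPM against 1349.8 TPM for Cox4i1. Cox6a2, a form of heart and skeletal muscle, had 40.8 TPM against 1305 TPM for Cox6a1. Cox7a1, also a form of muscle, had 8.92 TPM, while Cox7a2 had 523 TPM and the supercomplex factor Cox7a2l had 179 TPM. Cox6b2, a form of testis, was at 1.73 TPM and Cox8b at 1.18 TPM, against 696 TPM for Cox6b1 and 1181 TPM for Cox8a. Ndufa4, now placed with complex IV, had 809.9 TPM and its relative Ndufa4l2 12.0 TPM. Of the 10 tested forms of other tissues and relatives, 0 passed 10% FDR or an unadjusted p under 0.05. At 10% FDR 8.33% of all genes tested were lower and 10.0% higher. Fitted values were higher for 7 of the 10. The median log2 fold change of the 10 was 0.15, against 0.15 for all 32905 genes tested. Ndufa4l2, for example, had 2.98, 2.87 and 3.73 CPM at 6 months and 4.41, 3.18 and 4.29 CPM at 24 months (log2 fold change 0.31 ± 0.19 (SE), adjusted p = 0.29). Cox6a2 had 7.23, 7.85 and 6.72 CPM at 6 months and 7.15, 6.53 and 9.85 CPM at 24 months, with old mouse 5 the highest (log2 fold change 0.11 ± 0.17 (SE), adjusted p = 0.69). Cox7a2l was fitted lower, with 76.6, 75.8 and 75.7 CPM at 6 months and 72.3, 67.1 and 66.7 CPM at 24 months (log2 fold change -0.15 ± 0.09 (SE), adjusted p = 0.27). The testis form Cox8c had only 0, 0 and 2 counts at 6 months and 3, 4 and 1 counts at 24 months. Of the 4 other copies, Ndufs6b and Ndufa11b had 1.83 and 0.739 TPM and no call, and Ndufb4c and Ndufb11b had under 10 counts over the 6 libraries and were not tested.

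The assembly factors of complex I build the enzyme without staying in it, and the symbol rule took 8 of them. All 8 were fitted lower, 5 at an unadjusted p under 0.05 and 2 at 10% FDR, and their median log2 fold change was -0.24, against -0.14 for genes of at least 1 CPM. Of genes of at least 1 CPM, 26.9% were lower at an unadjusted p under 0.05 and 17.3% at 10% FDR. Ndufaf5, which modifies an arginine of the core subunit Ndufs7, lies at chromosome 2, 140170649 to 140203689, plus strand. It had 28.97, 30.2 and 28.3 CPM at 6 months and 22.1, 23.7 and 20.7 CPM at 24 months, the ages being apart also with library totals (log2 fold change -0.39 ± 0.10 (SE), adjusted p = 0.06). Ndufaf5 passed 10% FDR in 6 of the 18 other settings. Ndufaf4 had 60.1, 56.4 and 53.0 CPM at 6 months and 37.1, 47.0 and 48.6 CPM at 24 months (log2 fold change -0.35 ± 0.12 (SE), adjusted p = 0.092). With library totals the median of the 8 was -0.04, with 6 still fitted lower.

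Other genes of the pathway gave values around the same background. Among 40 tested of 41 other assembly factors, 7 (17.5%) were lower at 10% FDR and 0 higher, against 17.3% lower among genes of at least 1 CPM, and the median log2 fold change was -0.17. Fitted values were lower for 34 of the 40, and for 18 with library totals. The lowest was Taco1, a translation activator for a mitochondrial subunit of complex IV, with 5.22, 4.93 and 4.67 CPM at 6 months and 3.14, 2.95 and 4.06 CPM at 24 months (log2 fold change -0.55 ± 0.17 (SE), adjusted p = 0.078). Taco1 passed 10% FDR in 5 of the 18 other settings. The highest was Pet100, with 21.6, 21.7 and 16.4 CPM at 6 months and 24.3, 21.5 and 21.6 CPM at 24 months (log2 fold change 0.17 ± 0.13 (SE), adjusted p = 0.40). Of 7 carriers around the chain, 2 (28.6%) were lower at 10% FDR and 0 higher, against the same 17.3%. Their median was -0.23, against -0.23 for genes of at least 50 CPM. All 7 were fitted lower, and 4 with library totals. Vdac1, the main pore of the outer membrane, had 476, 474 and 436 CPM at 6 months and 360.02, 389 and 386 CPM at 24 months (log2 fold change -0.29 ± 0.08 (SE), adjusted p = 0.069), and Vdac2 had 275, 274 and 250.2 CPM at 6 months and 239, 252 and 229.9 CPM at 24 months (log2 fold change -0.15 ± 0.09 (SE), adjusted p = 0.27). Vdac1 passed 10% FDR in 2 of the 18 other settings, and missed it with the likelihood ratio test, the exact test and DESeq2. The inhibitor of ATP synthase Atpif1 had 192, 183 and 182 CPM at 6 months and 169, 164 and 169 CPM at 24 months (log2 fold change -0.15 ± 0.08 (SE), adjusted p = 0.24).

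Of 14 regulators of mitochondrial biogenesis and transcription, 3 were lower at 10% FDR, 7 at an unadjusted p under 0.05, and 0 higher, against 17.3% lower at 10% FDR and 26.9% at an unadjusted p under 0.05 among genes of at least 1 CPM. The median log2 fold change was -0.25, against -0.14 for genes of at least 1 CPM. Fitted values were lower for 12 of the 14, and for 9 with library totals. The lowest was Pprc1, a coactivator related to PGC-1α, with 32.3, 34.1 and 27.8 CPM at 6 months and 20.0, 20.8 and 22.8 CPM at 24 months. All old mice were below all young mice (log2 fold change -0.57 ± 0.12 (SE), adjusted p = 0.052), and with library totals its log2 fold change was -0.38. Without mouse 2, 4, 10 or 11 it missed 10% FDR. The highest was Esrra, the receptor ERRα, with 10.1, 12.1 and 21.5 CPM at 6 months and 17.7, 18.1 and 14.3 CPM at 24 months, where the young mice spread more than the ages differed (log2 fold change 0.20 ± 0.25 (SE), adjusted p = 0.61). Without young mouse 17, the highest young mouse, it was higher at 10% FDR, but leaving that mouse out lowers the young mean by construction.

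By fitted value with TMM, the mitochondrially encoded subunits did not share one direction, with 7 lower and 4 higher. Their genes are on the mitochondrial chromosome, and 11 of the 13 were tested. None was lower at 10% FDR or at an unadjusted p under 0.05, against 17.3% and 26.9% of genes of at least 1 CPM. At 10% FDR 1 was higher, against 10.0% of all genes tested. The median log2 fold change was -0.02, against -0.14 for genes of at least 1 CPM. With library totals 2 were fitted lower, and the median was 0.17 against 0.05 for genes of at least 1 CPM. The lowest of at least 1 CPM was mt-Co1, the catalytic subunit of complex IV, with 2392, 2497 and 2998 CPM at 6 months and 1638, 1819 and 3158 CPM at 24 months (log2 fold change -0.25 ± 0.22 (SE), adjusted p = 0.44). Old mouse 5 was the highest of all 6. Without that mouse mt-Co1 passed 10% FDR, but leaving out the highest old mouse lowers the old mean by construction. Of the read-length stretches of mt-Co1, 42.5% also occur in other genes. The highest was mt-Nd3 of complex I, with 3.02, 2.81 and 2.63 CPM at 6 months and 4.72, 4.60 and 4.59 CPM at 24 months (log2 fold change 0.72 ± 0.15 (SE), adjusted p = 0.052). Its old mice were all above its young mice, and it missed 10% FDR without mouse 2, 4, 10 or 11. For mt-Nd3, however, 97.9% of the read-length stretches also occur in a nuclear pseudogene. The same share was 99.5% for mt-Co2, 99.5% for mt-Atp6 and 99.9% for mt-Co3, which were listed at no more than 7 counts in any library. The level of these genes is uncertain for that reason. The gene mt-Atp8, which shares none of its stretches but overlaps mt-Atp6, was listed at no more than 1 count.

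Nuclear subunit genes are spread over many chromosomes, and known regulators of the pathway bind short motifs in their promoters. RefSeq promoters of GRCm38.p6, from 250 bases before to 50 bases after the start, were at hand for 65 of the 77 tested subunits (70 promoters). The NRF1 motif GCATGCGC, read on both strands, was in 14.3% of these promoters and in 2.71% of all 32851 promoters in the table. The YY1 motif AAGATGGCG was in 10.0% against 1.40%, the ETS motif CCGGAAGT bound by GABPA in 7.14% against 3.89%, and the ERRα motif TCAAGGTCA in 2.86% against 0.423%. Among the 70 promoters 23 held at least 1 of the 4 motifs and 1 held more than 1. A match is a description of letters and does not show binding.

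The NRF1 match is shown for 1 gene each of complexes I, II, IV and V, with the motif and, where both strands match, its overlapping reverse complement in capitals. The windows are 60 bases long, 5′ to 3′ along the gene, at chr17:56717677-56717736 on the plus strand for Ndufa11, chr4:140961191-140961250 on the plus strand for Sdhb, chr5:115349086-115349145 on the minus strand for Cox6a1 and chr5:108434415-108434474 on the minus strand for Atp5k.
Ndufa11: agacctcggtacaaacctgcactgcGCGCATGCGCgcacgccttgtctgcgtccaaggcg
Sdhb: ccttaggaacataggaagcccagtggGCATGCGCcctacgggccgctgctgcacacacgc
Cox6a1: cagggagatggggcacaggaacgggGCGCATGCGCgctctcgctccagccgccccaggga
Atp5k: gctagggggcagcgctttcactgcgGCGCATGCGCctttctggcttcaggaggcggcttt
In Ndufa11, Cox6a1 and Atp5k the motif and its reverse complement overlap into 1 longer palindrome, and in Sdhb only the motif itself is present.

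Of the 12 subunits lower at 10% FDR, 9 had a promoter in the table and 2 of those held a motif, Atp5g3 and Ndufs4. Their windows are shown because these are the called genes with a match, the ERRα match (reverse strand) upstream of Atp5g3 at chr2:73911344-73911403 on the minus strand and the YY1 match just past the start of Ndufs4 at chr13:114388045-114388073 on the minus strand, with the YY1 match of Ndufs7 at chr10:80249463-80249491 on the plus strand for comparison.
Atp5g3: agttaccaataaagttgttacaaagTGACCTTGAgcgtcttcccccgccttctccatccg
Ndufs4: cgtttgcctacaggAAGATGGCGgcggtc
Ndufs7: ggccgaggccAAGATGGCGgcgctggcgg
Counting the first transcribed base as 1, 6 of the 7 YY1 matches began at bases 23 to 36, as in Ndufs4 and Ndufs7. The 10 subunits with an NRF1 match had a median log2 fold change of -0.09, the 7 with a YY1 match -0.18, and the 42 with none of the motifs -0.15. The 5 with an ETS match had a median of -0.18 and the 2 with an ERRα match -0.26. By range, the NRF1 group ran from -0.20 to 0.23, the YY1 group from -0.27 to -0.08 and the subunits without a match from -0.35 to 0.08, with no test made between them.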

How the data were processed

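Cortex RNA of 6 male mice, 3 of each age, was compared. Per the labels and the methods, the authors trimmed reads (Trim Galore 0.6.4), aligned them to GRCm38 with STAR 2.7.3a and counted those of mapping quality 15 or more over exons with featureCounts of Subread 2.0.0. The methods state fractional counting of reads that map to several places, but the deposited count tables hold whole counts per gene, so how such reads were counted is uncertain, and the deposited TPM tables hold values that the authors scaled by gene length and library, with gene symbols. Counts were joined to symbols by row. The test took genes whose 6 libraries summed to 10 counts or more, in R 4.3.3 with edgeR 4.0.16 (TMM factors, quasi-likelihood F test, age as the only term), and p-values were adjusted by Benjamini-Hochberg over all 32905 genes. Every adjusted p in the report comes from this fit. Calls used 1% FDR, as the study did, and 10% FDR. Total counts were 29495379 to 36494240 counts per library.

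The alternatives were the edgeR likelihood ratio and exact tests, DESeq2 1.42.0, its size factors in edgeR, library totals, TMM factors from genes of at least 1 CPM, other filters, limma 3.58.1 on log2(TPM + 1) or log2(TPM + 0.1), and each library left out in turn. Levels relative to the summed subunits were added after the data were seen. The members and gene lists were chosen with earlier results of these data known. Named genes were the core, complex II, F1 and isoform genes, the extremes of each complex among genes of at least 10 CPM, the 5 members of smallest adjusted p and the extremes of each other list. Ndufb6, Ndufs4, Ndufab1, Ndufa8, Cox8a, Atp5pb, Atp5md, Atp5mpl, Atp5l, Cox8c, Ndufaf4, and the genes shown for their promoters were chosen after their values were seen. Coordinates, transcript lengths and overlaps came from the GENCODE vM21 annotation of GRCm38, whereas the study's methods name a later release. Stretches of read length were compared between transcripts. The mitochondrial genes were matched by gene ID. The scripts were tested on simulated data. The values of 1 gene are not reported here, although it is in the counts over members.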

Additional observations from a re-analysis of the deposited data

How the results depend on the processing

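No paired analysis was possible because the mouse numbers of the 2 ages (10, 11 and 17 against 2, 4 and 5) share none. The 12 subunits lower at 10% FDR became 4 with the likelihood ratio test, 3 with the exact test, 3 with DESeq2, 6 with DESeq2 size factors in edgeR, 1 without a filter, and 0 with library totals, with TMM on genes of at least 1 CPM, with filterByExpr, with only genes of at least 1 CPM tested and with all 3 TPM fits. The 23 at an unadjusted p under 0.05 became 11, 11 and 12 with the likelihood ratio, exact and DESeq2 tests, 13 without a filter, 4 with filterByExpr, 1 with only genes of at least 1 CPM, 0 with library totals, 0 with TMM on those genes, and 7 in each TPM fit. Leaving out 1 library gave 0 to 15 subunits at 10% FDR and 3 to 26 at an unadjusted p under 0.05. The 39 subunits lower without overlap became 6, with 7 higher, under library totals, and 9, with 3 higher, relative to the summed subunits.

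Median log2 fold changes moved with the scaling. With library totals they were 0.0375 (all subunits), 0.0613 (complex I), -0.0182 (complex II), 0.0384 (complex III), 0.0449 (complex IV), 0.0197 (complex V). With TMM on genes of at least 1 CPM they were 0.00103 (all subunits), 0.0241 (complex I), -0.0547 (complex II), 0.00183 (complex III), 0.00880 (complex IV), -0.0169 (complex V), and testing only those genes gave 0.00103 (all subunits), 0.0241 (complex I), -0.0547 (complex II), 0.00183 (complex III), 0.00880 (complex IV), -0.0169 (complex V). With filterByExpr they were -0.0413 (all subunits), -0.0184 (complex I), -0.0967 (complex II), -0.0400 (complex III), -0.0331 (complex IV), -0.0591 (complex V). On log2(TPM + 1), with and without a filter, they were -0.0423 (all subunits), -0.0173 (complex I), -0.0949 (complex II), -0.0403 (complex III), -0.0327 (complex IV), -0.0562 (complex V), and on log2(TPM + 0.1) -0.0424 (all subunits), -0.0174 (complex I), -0.0958 (complex II), -0.0405 (complex III), -0.0327 (complex IV), -0.0567 (complex V). Without a filter the median was -0.118 for all subunits and -0.135 for complex V. Leaving out 1 library gave -0.162 to -0.0842 for complex I, -0.234 to -0.142 for complex II, -0.177 to -0.0957 for complex III, -0.184 to -0.105 for complex IV and -0.213 to -0.143 for complex V, where the median of complex I without young mouse 11 and that of complex III without young mouse 10 moved by over 1.5 times. The log2 ratios of summed levels with library totals were 0.0328 (all subunits), 0.0506 (complex I), 0.0228 (complex II), 0.0729 (complex III), 0.0420 (complex IV), -0.0102 (complex V), and in TPM -0.0301 (all subunits), -0.0207 (complex I), -0.0567 (complex II), -0.0221 (complex III), -0.0383 (complex IV), -0.0355 (complex V). The cause of these moves was not tested, except that the scalings by construction shift all genes of a library together.

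The subunits fitted lower numbered 25 of 77 with library totals, 38 with TMM on genes of at least 1 CPM, 47 with filterByExpr and in TPM, 67 without a filter and 65 to 76 with 1 library left out. With 3 mice an age the median standard error of a log2 fold change was 0.09, which limits what can be said of small differences in single subunits.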
